A study of Mus musculus with 71 samples.

Results

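The Hox genes of clusters A to D were examined in mouse embryonic stem cells (mESCs) of the R1 line, for their RNA and for the H3K27me3 mark over their chromatin. The members were chosen by name, as the genes of the HoxA cluster on chromosome 6, HoxB on chromosome 11, HoxC on chromosome 15 and HoxD on chromosome 2, and 38 of the 24138 genes with a symbol in the RNA tables were taken. They comprise 10 genes of HoxA, 10 of HoxB, 9 of HoxC and 9 of HoxD. WT cells were compared with H1-TKO cells, in which H1c, H1d and H1e, 3 genes of the linker histone H1, were disrupted with CRISPR/Cas9 and clones grown from single cells were picked, so that a genotype effect and a clone effect cannot be told apart. Both kinds of cells were grown in serum with LIF. The knockout cells had earlier been through transfection and a screen with puromycin or neomycin, before clones were picked. No other treatment of the cells used here is named. RNA-seq of poly(A) RNA had 2 libraries per genotype, and H3K27me3 ChIP-seq had 2 libraries per genotype by the labels, of which the peak list of the first was read and the second was not analysed here.

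Hox genes encode homeodomain transcription factors that set the identity of segments along the body axis. In each cluster the genes lie in the order in which they act, from the anterior paralogs (group 1 and the next groups) to the posterior ones (up to group 13). In mESCs the clusters are held silent by Polycomb repressive complexes. PRC2 places H3K27me3, PRC1 binds to it, and during differentiation retinoic acid and Cdx factors are among the signals that open the clusters.

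The genotype of each RNA-seq library is given here as its table names it, and the sample labels state the opposite. Each library equalled its named source column in 1999 of 1999 rows that could be compared. All directions in the RNA below turn around if the sample labels are followed. H1 transcripts are mostly without a poly(A) tail, so the RNA of the disrupted genes is a weak check of the labels. In what follows a pair of values before WT or H1-TKO gives the 2 libraries of that genotype in order. The normalized count of H1f2 (H1c) was 11.6 and 56.7 (WT) against 18.7 and 7.37 (H1-TKO). That of H1f3 (H1d) was 3.88 and 41.4 (WT) against 1.10 and 0 (H1-TKO), and that of H1f4 (H1e) 5.43 and 19.6 against 0 and 2.11. H1f2 overlapped between the genotypes, while H1f3 and H1f4 were lower in both H1-TKO libraries. The recovered reads numbered 10538507 and 8292007 (WT) against 6951619 and 7346122 (H1-TKO). A single read is worth 0.776 and 1.09 normalized counts (WT) against 1.10 and 1.05 (H1-TKO).

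Of the 13 pluripotency markers 10 had an accession that could be tested, of which 5 were higher and 1 lower in H1-TKO cells at an adjusted p under 0.05 in limma, where 9.84% of all accessions tested were higher and 10.7% lower. Those 6 calls became 3 without either H1-TKO library, 8 without the first WT library and 9 without the second. Of all accessions tested 5.43% and 5.26% passed in either direction without the first and the second H1-TKO library, against 49.2% and 44.5% without the first and the second WT library. In such a fit the lone library of a genotype is taken to vary like the pair of the other genotype, which alone gives the spread. The genes that rose were Klf4, Sox2, Tfcp2l1, Dppa5a and Fgf4, and the gene that fell was Tdgf1. The summed normalized count of the list ranged from 35434 to 48909 in WT and from 62560 to 63357 in H1-TKO libraries. Of the 14 lineage markers 6 were tested and none passed in limma (1 had an unadjusted p under 0.05, and 0 passed in edgeR and 1 in DESeq2), with a summed level of 188.7 to 259.1 in WT and 87.4 to 101.4 in H1-TKO libraries. Hand1, a mesoderm and trophoblast gene, made up most of that gap: without it, a sum added after the data were seen, the level was 83.8 and 125.4 (WT) against 65.0 and 83.2 (H1-TKO). Of the 12 fibroblast markers 3 were tested, Thy1 was higher and Col1a1 lower, and the summed level was 310.9 to 405.8 in WT and 519 to 589.8 in H1-TKO libraries. Thy1, a surface protein, carried that rise: without it, a sum added after the data were seen, the level was 296.4 and 185.4 (WT) against 69.4 and 79.0 (H1-TKO). The fibroblast genes Dcn, Postn and Pdgfrb were listed at 0 in all 4 libraries, but so was the pluripotency gene Nanog, and like Nanog they have several accessions each, so that a listed 0 does not show absence here. The part of these markers in the Hox results was not tested, and fewer cells with a transcript and less transcript per cell cannot be told apart in bulk samples.

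Short stretches of sequence at the clusters are shown first. Polycomb complexes in mammals gather at DNA rich in CpG, so the stretch of 30 bases with the most CpG dinucleotides was read for the WT peak with the highest score between the first and last member of each cluster, and for the promoters of Hoxb9 and Hoxc13, the 2 members whose RNA passed the test. The letters come from NCBIM37 (mm9), plus strand, with CpG in capitals. In HoxA the stretch is in an intron of Hoxa3, chr6:52127204-52127233.
HoxA peak, 5 CpG: tgagagcCGgcCGcaaaatcCGctCGgcCG
In HoxB it spans the start of Hoxb13, chr11:96055626-96055655.
HoxB peak, 5 CpG: CGaatgcaggCGcCGttCGagctgggagCG
In HoxC it begins 200 bases before the start of Hoxc12, chr15:102766988-102767017.
HoxC peak, 7 CpG: cCGCGtCGagCGatCGcttcccCGtctgCG
In HoxD it is in an intron shared by Hoxd4 and Hoxd3, chr2:74563382-74563411.
HoxD peak, 6 CpG: agCGgaggCGctggggCGgCGaaattCGCG
The stretch of the Hoxb9 promoter is in the first coding exon, 382 bases after the start, chr11:96133153-96133182.
Hoxb9 promoter, 8 CpG: gagcCGgCGcCGCGCGcCGaggcCGcccCG
The stretch of the Hoxc13 promoter is in the first coding exon too, 149 bases after the start, chr15:102751683-102751712.
Hoxc13 promoter, 8 CpG: gCGCGgCGgagagCGgcagCGgCGgCGgCG
Over whole peaks, the 22 WT peaks of the clusters had a median of 26.8 CpG per kb and 51.0% G and C, against 28.2 CpG per kb and 53.6% in all WT peaks. By these medians the Hox peaks were not richer in CpG than the rest.

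To ask whether Hox RNA differed between the genotypes, the levels were first read in each library. Hox RNA was low in both genotypes: 10 of the 38 members had no read in any library, 19 had a mean normalized count of at least 1, and 3 reached the mean of 10 that was needed for the test. Summed over all members, the normalized count was 84.6 and 58.9 (WT) against 201.6 and 219.1 (H1-TKO), a ratio of 2.93. These sums rest on 109 and 54 reads in WT and 183 and 208 reads in H1-TKO libraries. Without Hoxb9 and Hoxc13 the ratio was 2.45, an alternative added after the data were seen. The members are thus a small set of nearly silent genes with a higher sum in both H1-TKO libraries, and no test was made of that sum.

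Hoxb9 and Hoxc13, both posterior genes, had the highest levels of the members in H1-TKO cells and were the 2 members whose RNA passed the test. Hoxb9 (NM_008270), which acts in the thorax and in the mammary gland, lies on chromosome 11 from 96132771 to 96137909. Its normalized count was 9.31 and 19.6 (WT) against 65.0 and 48.4 (H1-TKO), so that the groups did not overlap. It was higher in H1-TKO cells by 1.97 ± 0.52 (SE) on the log2(normalized count + 1) scale, with an adjusted p of 0.0385 in limma. Hoxc13 (NM_010464), known for its part in hair and nails, lies on chromosome 15 from 102751534 to 102759245. Its normalized count was 27.2 and 20.7 (WT) against 61.7 and 82.2 (H1-TKO), again with no overlap. It was higher by 1.55 ± 0.41 (SE), with an adjusted p of 0.0367 in limma. Of all 11113 accessions tested 9.84% were higher and 10.7% lower in H1-TKO cells, and of the 3 members tested 2 were higher and none lower. Both calls were lost when either H1-TKO library was left out: the adjusted p in limma was then 0.253 and 0.139 for Hoxb9 and 0.164 and 0.312 for Hoxc13, at log2 differences of 1.76 and 2.18 and of 1.75 and 1.34. The spread in these fits comes from the WT pair alone. They were also lost when all accessions with a mean of at least 1 were tested together, with adjusted p-values in limma of 0.0679 for Hoxb9 and 0.0625 for Hoxc13.

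Hoxd13, which patterns digits and the genital tubercle, was the third member tested. Its normalized count was 19.4 and 6.54 (WT) against 4.41 and 10.5 (H1-TKO), so that the groups overlapped. The log2 difference was -0.65 ± 0.83 (SE) with an adjusted p of 0.601 in limma, and it became 0.066 without the first WT library. No change was detectable at this depth.

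**Figure D1:**
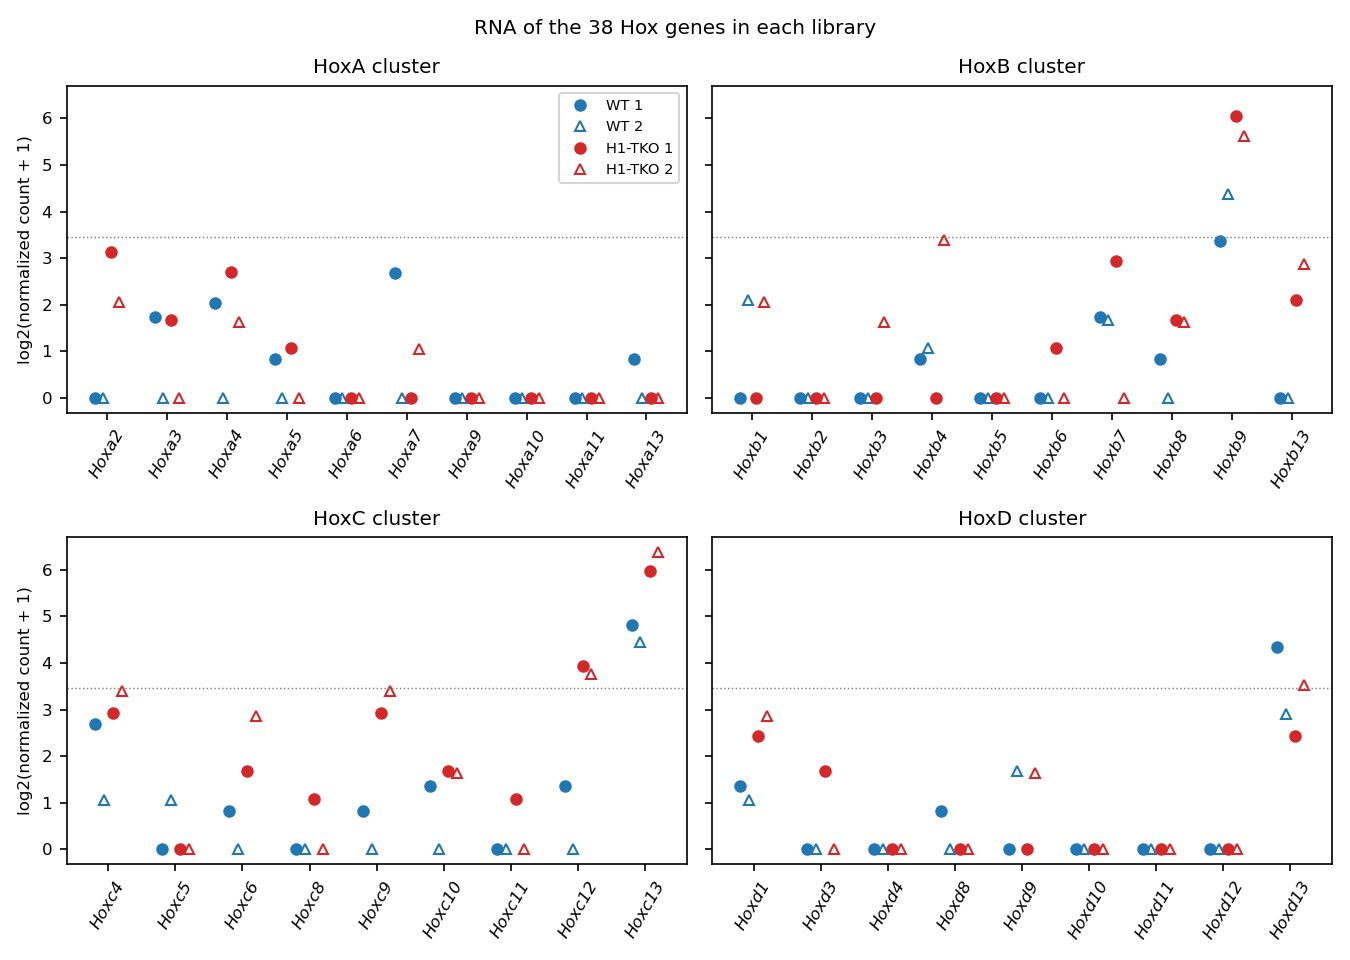
Normalized counts of the 38 Hox genes on the log2(normalized count + 1) scale (vertical axis) in each of the 2 WT libraries (blue) and 2 H1-TKO libraries (red), by cluster, with accessions of 1 gene summed. The dotted line marks a count of 10, which only points of Hoxb9, Hoxc12, Hoxc13 and Hoxd13 exceed, and both H1-TKO points of Hoxb9, Hoxc12 and Hoxc13 lie above both WT points.

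Below the limit of the test, Hoxc12 stood out. This neighbour of Hoxc13 had a normalized count of 1.55 and 0 (WT) against 14.3 and 12.6 (H1-TKO), from 2 and 0 against 13 and 12 reads. It was tested only where the filter let it in. The adjusted p was 0.0414 with a filter of at least 10 in 2 libraries, a filter that Hoxc12 passed through its H1-TKO libraries alone. It was 0.0581 in limma with a mean of at least 1, 0.0709 in edgeR and 0.0945 in DESeq2. Hoxc9 followed with 0.776 and 0 (WT) against 6.61 and 9.48 (H1-TKO). Hoxa2, a gene of the hindbrain and second arch, and Hoxb13, a gene of the tail bud and prostate, had no read in either WT library. Hoxa2 had 7 and 3 reads and Hoxb13 had 3 and 6 reads in the H1-TKO libraries, beside the 3 reads that a count of 0 over both WT libraries together allows.

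Hoxc4, Hoxc6, Hoxc10, Hoxb8 and Hoxd1 had higher values in both H1-TKO libraries as well, at means of 1.27 to 5.65. Hoxc4 had 5.43 and 1.09 (WT) against 6.61 and 9.48 (H1-TKO). Hoxd1, the most anterior HoxD gene, had 1.55 and 1.09 against 4.41 and 6.32. In all, 11 of the 38 members had both H1-TKO values above both WT values and none had both below. Over all 34010 accessions the shares were 15.8% and 15.1%. Among accessions with a mean from 1 to under 10 the shares were 27.9% and 18.6%, and of the 16 members in that range 9 were higher and none lower.

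Of the remaining members with reads, Hoxa3, Hoxa4, Hoxa7, Hoxb1, Hoxb4, Hoxb7 and Hoxd9 had means of 1.07 to 2.84 and overlapped between the genotypes. Hoxb4 rested on a single library, with 9 of its 11 reads in the second H1-TKO library. Hoxa7 went the other way, with 7 reads in the first WT library and 1 over the other libraries together. Hoxa5, Hoxa13, Hoxb3, Hoxb6, Hoxc5, Hoxc8, Hoxc11, Hoxd3 and Hoxd8 had a mean under 1. Hoxa6, Hoxa9, Hoxa10, Hoxa11, Hoxb2, Hoxb5, Hoxd4, Hoxd10, Hoxd11 and Hoxd12 were listed at 0 in all 4 libraries. A listed 0 is not always an absent transcript in these tables. Hoxa9, Hoxa10, Hoxb3, Hoxd8 and Hoxd11 have several accessions each, and 48.4% of genes with several accessions lay under 1, against 30.6% of genes with 1 accession. The exons of 17 members overlap those of another annotated gene, 6 of them another member, and how such reads were assigned is not given in the sources used here.

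Per kb of annotated exon, the order of the levels in WT was Hoxc13 (9.73 normalized counts per kb), Hoxb9 (5.62) and Hoxd13 (5.22), followed by Hoxc4 at 1.28. In H1-TKO cells it was Hoxc13 (29.2), Hoxb9 (22.0), Hoxc12 (13.1), Hoxc9 (3.31) and Hoxc4 (3.15). The WT values of Hoxb9 and Hoxd13 overlapped, and so did the H1-TKO values of Hoxc13 and Hoxb9 and those of Hoxc9 and Hoxc4, so these neighbours in the order did not differ beyond their spread. Hoxc12 thus stood in the third place in H1-TKO cells.

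By cluster, the libraries of the genotypes did not overlap in HoxB and HoxC. The summed normalized count of HoxB was 13.2 and 26.2 (WT) against 78.2 and 71.6 (H1-TKO), a ratio of 3.81. That of HoxC was 37.2 and 22.9 against 95.9 and 122.2, a ratio of 3.63. HoxD had 21.7 and 9.82 against 11.02 and 19.0, a ratio of 0.95, and HoxA had 12.4 and 0 against 16.5 and 6.32, a ratio of 1.84 with overlapping libraries. Both ratios rested on single libraries. That of HoxA was 0.920 without the second WT library, 1.02 without the first H1-TKO library and 2.66 without the second. Without the first WT library it has no value, as the WT sum is then 0. That of HoxD was 1.53 and 0.690 without the first and the second WT library. It was 1.20 and 0.699 without the first and the second H1-TKO library. In HoxC 6 of 9 members were higher without overlap, in HoxB 3 of 10, and in HoxA and HoxD 1 each, beside 15.8% of all accessions and 27.9% of those with a mean from 1 to under 10. Whether the clusters differ from each other was not tested. The HoxB values run against their chromosome: the median log2 difference over the 911 accessions tested on chromosome 11 was -0.37, and after each library was centred on the median deviation of the accessions of each chromosome in it the log2 difference of Hoxb9 was 2.25, with an adjusted p of 0.0211 in limma. On chromosomes 2, 6 and 15 the medians were 0.01, 0.04 and -0.02.

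**Figure D2:**
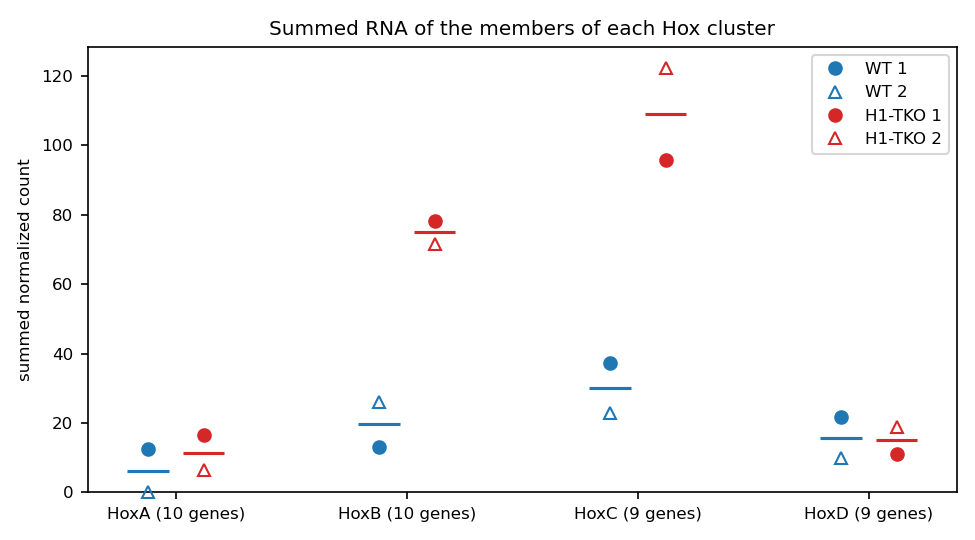
Summed normalized count of the members of each Hox cluster (vertical axis) in the 2 WT (blue) and 2 H1-TKO (red) libraries, with a bar at the mean of each genotype. Both H1-TKO libraries lie above both WT libraries in HoxB and HoxC, and the genotypes overlap in HoxA and HoxD.

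By position along the body axis, the posterior members (groups 9 to 13) held 60.5 and 49.1 normalized counts (WT) against 158.7 and 173.8 (H1-TKO). The central members (groups 4 to 8) held 20.2 and 5.45 against 26.4 and 30.5, and the anterior ones (groups 1 to 3) 3.88 and 4.36 against 16.5 and 14.7. The posterior genes thus had the highest sum in every library, mostly through Hoxb9 and Hoxc13.

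Genes that act on or with the Hox genes were read from lists in the same fit. Of the 3 Cdx genes, which activate Hox genes, Cdx1 was the one tested. It had 9.31 and 14.2 normalized counts (WT) against 33.1 and 59.0 (H1-TKO). Its log2 difference of 1.85 ± 0.54 (SE) had an adjusted p of 0.0506 in limma, 0.0493 in edgeR and 0.0448 in DESeq2. With all accessions of a mean of at least 1, the adjusted p was 0.0806 in limma, 0.0566 in edgeR and 0.0528 in DESeq2. The log2 difference was 2.26 and 1.44 without the first and the second H1-TKO library, and 1.57 and 2.13 without the first and the second WT library. Cdx2 had 26.4 and 0 (WT) against 3.31 and 0 (H1-TKO) and Cdx4 had 7.76 and 0 against 1.10 and 6.32, so that both overlapped, as did the sums of the list, 43.4 and 14.2 against 37.5 and 65.3. None of the 3 tested Hox cofactors (such as Pbx and Meis genes) and none of the 6 tested accessions of the retinoic acid pathway passed in limma, with median log2 differences of 0.21 and -0.12. Of the cofactors 0 had an unadjusted p under 0.05 and 0 passed in edgeR or DESeq2, and of the retinoic acid accessions 4 had one, 0 passed in edgeR and 1 in DESeq2. Of 17 tested accessions of Polycomb genes, 1 was higher and 2 were lower, beside 9.84% and 10.7% of all accessions. Rbbp7, a histone-binding subunit of PRC2 and of other complexes, was higher by 0.93 (adjusted p 0.0219 in limma). Cbx7, the PRC1 subunit that reads H3K27me3 in mESCs, fell by 0.74 (adjusted p 0.0160 in limma), and 1 accession of Phc1, another PRC1 subunit, fell by 1.86 (adjusted p 0.0250 in limma). Of 7 tested accessions of trithorax and H3K27 demethylase genes, Rbbp5 was higher by 0.70 and 1 accession of Ash2l fell by 1.89, with adjusted p-values in limma of 0.0111 and 0.0249. Both encode core subunits of H3K4 methyltransferase complexes. The median log2 difference over all 11113 accessions was -0.03. Without either H1-TKO library 0 calls were left among the Polycomb and trithorax genes or the genes beside the clusters. Without the first and the second WT library, 11 and 9 Polycomb, 6 and 3 trithorax and 5 and 3 neighbouring accessions passed, where 49.2% and 44.5% of all accessions did.

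Of 7 tested genes beside the clusters, 3 were higher and none was lower. Ttll6, a tubulin-modifying enzyme beside Hoxb13, had 167.6 and 187.6 normalized counts (WT) against 402.2 and 415.0 (H1-TKO), higher by 1.20 ± 0.19 (SE, adjusted p 0.00887 in limma). Hibadh, beside HoxA, was higher by 0.88 and Mtx2, beside HoxD, by 0.79. Skap2, on the other side of HoxA, had a log2 difference of 0.02. These 3 calls stand beside the 9.84% of all accessions that were higher, and no test of the list was made.

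Of the transcripts of the clusters that are not protein-coding, 2 were tested and none passed in limma, edgeR or DESeq2, with 0 at an unadjusted p under 0.05. Halr1, a long RNA beside the anterior end of HoxA, had 31.8 and 137.4 normalized counts (WT) against 46.3 and 76.9 (H1-TKO), with full overlap. Mir196a-1, the miRNA gene between Hoxb13 and Hoxb9, had 6.21 and 6.54 (WT) against 28.6 and 13.7 (H1-TKO). Its log2 difference was 1.5 ± 0.68 (SE) with an adjusted p of 0.150 in limma. These are reads of poly(A) RNA over the hairpin and not of the mature miRNA. The mature sequence (RefSeq, GRCm38.p6) is shown because it is encoded next to Hoxb9 and is known to target Hoxb8, with the seed (bases 2 to 8) in capitals.
mmu-miR-196a-5p: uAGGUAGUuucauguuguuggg
Hotair, the antisense RNA of HoxC, had 0.776 and 0 (WT) against 5.51 and 2.11 (H1-TKO), and Hotairm1 of HoxA had 3.88 and 2.18 against 1.10 and 1.05. Neither reached the mean needed for the test.

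To ask how the mark lay over the same genes, H3K27me3 peaks were counted in each cluster from the first to the last member with 10 kb on either side, 565 kb in all. A peak belongs to a cluster by its centre. Scores are on the scale of -10 log10(p) that MACS writes, and the lowest score listed was 50.01 in WT and 50 in H1-TKO cells. The WT list held 22 peaks in the 4 clusters and the H1-TKO list 11, a ratio of 0.5, where all peaks gave 6957 and 6262, a ratio of 0.900. The length under peaks was 51.8 kb in WT and 15.6 kb in H1-TKO cells, a ratio of 0.301 against 0.862 in the genome. In WT cells 9.17% of the cluster length lay under peaks and in H1-TKO cells 2.76%, against 0.213% and 0.183% of the genome. The clusters were thus dense in H3K27me3 in both genotypes, with fewer and shorter peaks in H1-TKO cells. With 1 list per genotype no difference in peaks could be tested, and the lists hold no read counts. The intervals below cover counting error only, and they treat neighbouring peaks of a cluster as independent, which was not tested.

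Overlap of 1 bp or more with an H1-TKO peak was seen for 9 of these 22, or 40.9% (95% Clopper-Pearson interval 20.7 to 63.6). Thus 13 Hox peaks of WT had no H1-TKO peak, 59.1%, beside 44.6% over all WT peaks. The 55.4% of all WT peaks that an H1-TKO peak overlapped lies inside the interval of the Hox share. Of the 11 Hox peaks of H1-TKO cells, 2 lacked a WT peak, against 37.5% over that whole list. The WT scores of the Hox peaks were not high. They ran from 52.6 to 140.1 with a median of 65.6, against a median of 78.8 over all WT peaks. A score is that of a peak call and not a level of the mark, so a missing call is not a missing mark. Over 4 groups of WT peaks of equal number, from the lowest scores to the highest, an H1-TKO peak was found for 3 of 6, 1 of 9, 2 of 4 and 3 of 3 Hox peaks, where all peaks gave 22.3%, 40.7%, 65.1% and 93.4%.

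The Hox peaks were wide. In WT cells 13 of 22 were over 2 kb, 59.1% against 8.21% of all WT peaks, and their median width was 2385 bp against 559 bp. In H1-TKO cells 1 of 11 was over 2 kb, against 6.64% of all. Of the 13 wide Hox peaks, 4 overlapped an H1-TKO peak, 30.8% (95% Clopper-Pearson interval 9.09 to 61.4), whereas 86.0% of all 571 wide WT peaks did. Of the wide WT peaks with a score no higher than the highest score of the Hox peaks, 65.5% of 223 did. Among wide peaks with a score under 100, the counts were 1 of 10 Hox peaks (10.0%, interval 0.253 to 44.5) and 54.3% of 140 peaks in all. Of the Hox peaks up to 2 kb, 5 of 9 overlapped an H1-TKO peak, 55.6%, close to the 52.6% of all such peaks. The widths were looked at after the scores, so these shares are a description.

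The HoxD cluster had the lowest ratio of lengths. It had 7 peaks in WT and 2 in H1-TKO cells, over 18.6 kb and 1.51 kb, a ratio of 0.0812, or 15.9% and 1.29% of its length. The 6 WT peaks with no H1-TKO peak lay at the promoter of Evx2 next to Hoxd13 (score 58.4), over Hoxd9 (57.1), in the first part of the long Hoxd3 transcript (71.0), over Hoxd4 (99.7, chr2:74560817-74564266), at an inner start of Hoxd3 (66.3) and between Hoxd3 and Hoxd1 (65.0). Listed peaks covered 48.0% and 100% of the length of Hoxd4 and Hoxd9 in WT cells, and no listed peak covered them in H1-TKO cells. At Hoxd1 the order turned around. A WT peak of 867 bp with a score of 54.4 over the coding exon faced an H1-TKO peak with a score of 115.4, beside a second H1-TKO peak with a score of 119.3 just after the start of the gene. The share of the Hoxd1 gene under peaks was 40.1% in WT and 69.7% in H1-TKO cells.

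HoxB had the highest ratio of lengths. Of its 8 WT peaks 5 overlapped an H1-TKO peak, and the length was 15.1 kb in WT and 8.72 kb in H1-TKO cells, a ratio of 0.577. The highest score of all clusters was that of the peak over Hoxb13, chr11:96055489-96059102, with 140.1 in WT and 83.2 in H1-TKO cells. The peak at the start of Hoxb1 had 134.4 and 84.9. Peaks near Hoxb13 in the intergenic DNA had 57.5 and 56.1 in WT and 52.8 and 51.3 in H1-TKO cells, and that at Hoxb2 had 64.3 and 53.8. Without an H1-TKO peak were a peak just before the start of Hoxb9 (score 64.5, chr11:96130533-96132195), the peak at an inner start of Hoxb3 (96.5) and a peak of 206 bp in the gap between Hoxb13 and Hoxb9 (65.2).

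HoxC had 3 WT peaks over 5.57 kb and 2 H1-TKO peaks over 2.06 kb, a ratio of 0.370. The peak at the start of Hoxc12, chr15:102765870-102768035, scored 133.5 in WT cells and 50.5 in H1-TKO cells, just over the lowest score listed. The peak in the first part of Hoxc13, just after its start (score 62.0, chr15:102751713-102752836) and that over Hoxc8 (52.6) had no H1-TKO peak. A peak listed for H1-TKO cells alone, with a score of 50.2, lay at the 3′ end of Hoxc5, toward Hoxc4, at the very limit of the list. In HoxA 2 of 4 WT peaks overlapped an H1-TKO peak, and the length was 12.6 kb in WT and 3.31 kb in H1-TKO cells, a ratio of 0.263. The WT peak with the highest HoxA score, 110.0, lay beyond the 3′ end of Hoxa2 and kept a score of 102.8. The peak inside Hoxa3, chr6:52126862-52130030, had 80.2 and 64.0. The peaks between Hoxa11 and Hoxa13 (68.6) and before Hoxa13 (66.0) had no H1-TKO peak.

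**Figure D3:**
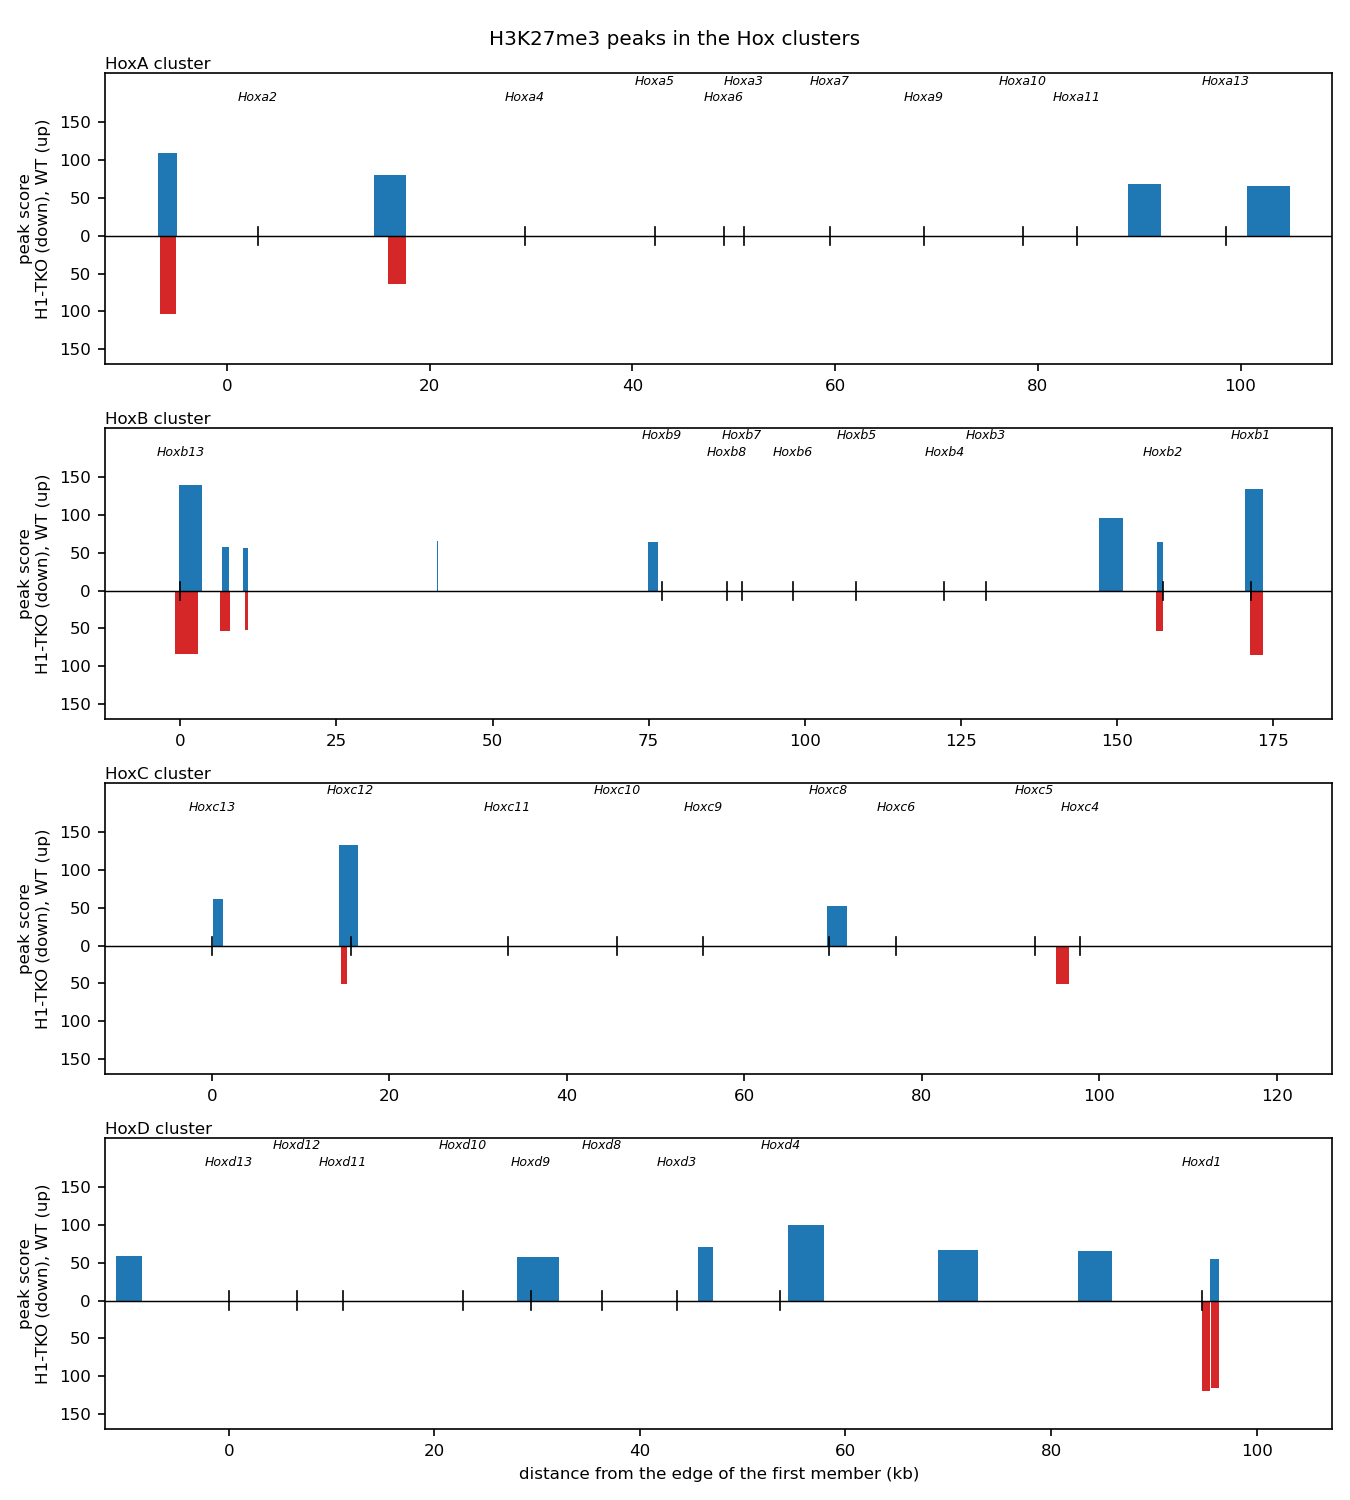
H3K27me3 peaks along the 4 Hox clusters, by distance in kb from the lower edge of the first member (horizontal axis), with bars as wide as the peak and as high as its score, up for WT (blue) and down for H1-TKO (red). Ticks mark the outermost start of each member, and the 6 HoxD peaks of WT from Evx2 to the DNA before Hoxd1 have no red bar under them.

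Over all clusters, 8 of the 9 WT peaks with an H1-TKO peak had a lower score in H1-TKO cells and 1 a higher one, with a median difference of -10.5. Over all such WT peaks 54.1% had a lower score, with a median difference of -4.26. No WT peak of the clusters with a score of at least 100 was without an H1-TKO peak. Those that no H1-TKO peak overlapped had scores of 52.6 to 99.7.

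**Figure D4:**
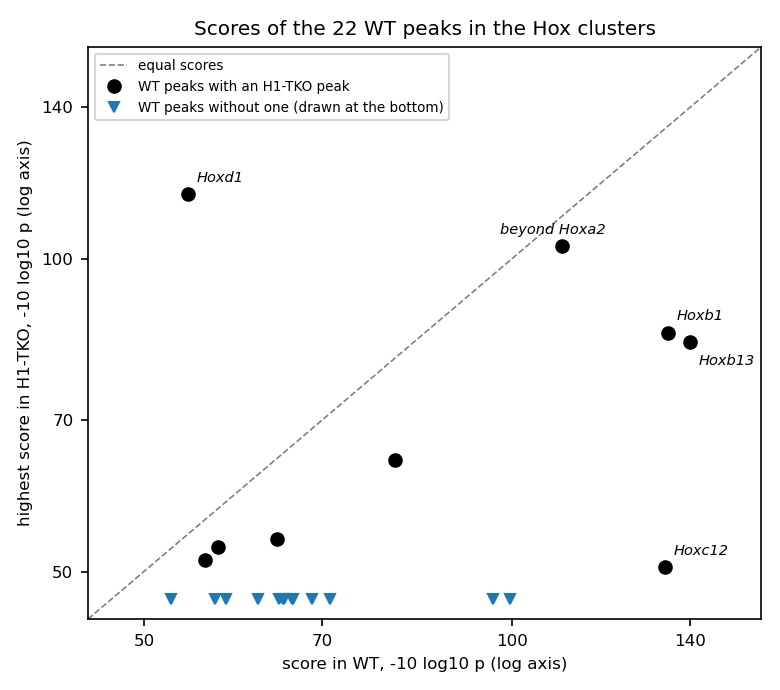
Score of the 22 WT peaks in the Hox clusters (horizontal log axis) against the highest score of the H1-TKO peaks that overlap them (vertical log axis), with WT peaks that no H1-TKO peak overlaps drawn as triangles at the bottom. Of the 9 points 8 lie under the line of equal scores, and the point of Hoxd1 lies above it.

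Member by member, a WT peak lay within 1 kb of a transcription start for 12 of the 38 members, 31.6% against 12.8% of all protein-coding genes. In H1-TKO cells 5 members had one, all of them among the 12. Of the 12 promoters 7 had no H1-TKO peak, 58.3%, where the share over all protein-coding genes with a WT promoter peak was 26.6%. Neighbouring promoters can share a peak, as Hoxd3 and Hoxd4 did, so the 12 promoters are not independent. The 5 with a peak in both lists were Hoxb1, Hoxb2, Hoxb13, Hoxc12 and Hoxd1, and the 7 with a peak in WT alone were Hoxb3, Hoxb9, Hoxc8, Hoxc13, Hoxd3, Hoxd4 and Hoxd9. No promoter of the 10 HoxA members had a peak in either list. By position, a WT promoter peak was found at 5 of 7 anterior, 2 of 15 central and 5 of 16 posterior members, and an H1-TKO one at 3, 0 and 2 of them.

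The RNA was then set beside the promoters. Hoxb9 and Hoxc13, the 2 members whose RNA passed the test, both had a promoter peak in WT cells and none in H1-TKO cells. They were among the 11 members that were higher without overlap. The Hoxb9 peak ends before the start of the gene, and with promoters of 500 bp to each side Hoxb9 had a peak in neither list, while Hoxc13 kept its own. The other 5 members of that kind stayed near 0, with a summed normalized count of 0 and 2.18 (WT) against 3.31 and 4.21 (H1-TKO), and none of them was higher without overlap. The 5 members with a peak in both lists summed to 3.10 and 4.36 (WT) against 22.0 and 28.4 (H1-TKO), and Hoxb13, Hoxc12 and Hoxd1 among them were higher without overlap. Of these, Hoxb13 and Hoxc12 had a lower peak score in H1-TKO cells and Hoxd1 a higher one. The 26 members with no promoter peak summed to 45 and 12 (WT) against 49.6 and 55.8 (H1-TKO), and 6 of them were higher without overlap. These counts stand beside the 15.8% of all accessions, and 27.9% of those with a mean from 1 to under 10, that were higher without overlap. By the limma test, a different measure, over all tested accessions that could be placed, 8.36% of 335 with a promoter peak in WT alone were higher in H1-TKO cells, 9.83% of 875 with a peak in both lists and 10.2% of 7898 with none. The shares that were lower, which become the higher ones if the sample labels are followed, were 8.96%, 10.6% and 10.9%. Of the 7 members with a promoter peak in WT alone 2 had RNA that reached the test, Hoxb9 and Hoxc13, so the members' count and these shares have different denominators and were not compared.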

How the data were processed

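In the RNA-seq files the deposited signal of each accession is a normalized count, made by the authors from reads mapped to mm9 with Subread, counted by featureCounts and scaled by the DESeq2 size factor of the library, per the labels. All values (100%) were whole reads within 0.01 reads, so the reads per library could be recovered. No strand setting is given in the sources used here. In the ChIP-seq files the authors deposited MACS peaks from bowtie2 alignments, with a score on the scale -10 log10(p). Spike-in reads were not used here.

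Symbols came from a RefSeq table of GRCm38.p6 and places from GENCODE M1 (NCBIM37). The 11113 of 34010 accessions whose normalized counts averaged 10 or more were fitted in limma 3.58.1 under R 4.3.3, on log2(normalized count + 1), using eBayes with the trend option and Benjamini-Hochberg adjustment over all of them. As alternatives, recovered reads were tested in edgeR 4.0.16 and in DESeq2 1.42.0. The limma step was tested on simulated data for the comparison of H1-TKO and WT, 2 libraries a genotype, where it found 188 of 200 genes changed by a log2 fold of 2 among 11020, with 7 false calls. Peaks were compared by overlap of 1 bp, and a promoter reached 1 kb to each side of a start. Every member was accounted for, those tested with full statistics. Of the lists, genes past an adjusted p of 0.05 were named, up to 5 a direction. Of the peaks, the one with the highest WT score in each cluster was named by rule, and others after their values were seen. The members, lists and alternatives were chosen with earlier results of these data known. The labels do not say that libraries came from separate cultures, while the paper calls the 2 RNA samples of each genotype biologically independent. The p-values measure the spread between these libraries.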

Additional observations from a re-analysis of the deposited data

How the results depend on the processing

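The 2 calls among the Hox genes became 0 with limma filters of a mean of at least 1 or of any value above 0. They became 0 without either H1-TKO library and stayed 2 without either WT library, where 49.2% and 44.5% of all accessions passed, so that leaving out a library gave 0 to 2. Beside that count of 0, unadjusted p-values of Hoxb9 and Hoxc13 with the mean of at least 1 were 0.00826 and 0.00693 in limma, and edgeR and DESeq2 kept both calls at that filter. The log2 difference of Hoxb9 ran from 1.47 to 2.47 and that of Hoxc13 from 1.34 to 1.75 over 17 alternatives, and that of Hoxd13 from -1.37 (without the second WT library) to 0.066 (without the first). The ratio of summed Hox counts was 2.49 to 3.57 with a library left out. With the replicate block 2 Hox accessions were higher, and of the related lists, with 5 higher and 3 lower accessions, 9 were higher and 9 lower. The correlation of libraries that share a replicate number was 0.011, so they share only a number. Those list counts were 0 to 16 higher and 0 to 13 lower with a library left out, 1 lower with any value above 0, and 5 lower in DESeq2 with either filter (the lower mean was added after the data were seen). At a score of at least 100, Hox promoters with a peak numbered 3 in WT and 1 in H1-TKO cells. Within 5 kb they numbered 16 and 8. Within 500 bp they numbered 9 and 5, and Hoxb9, Hoxd4 and Hoxd1 lost theirs in WT. The matching shares over all protein-coding genes were not read at these settings, so these counts are a description. The share of Hox peaks with an H1-TKO peak was 25.0% to 42.1% under 7 peak alternatives, where all WT peaks gave 46.8% to 66.0%. The ratio of peak numbers was 0.455 to 0.75 and that of lengths 0.297 to 0.391, under 5 alternatives each. These ratios are given without their values over all peaks. At a score of at least 100 the share of 25.0% rests on 1 of 4 WT peaks. The ratio of 0.75 there rests on 3 H1-TKO and 4 WT peaks. The depth of the RNA limits the 35 members with a mean under 10, and 1 list per genotype limits all statements on peaks.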

Other observations

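Outside the windows of the clusters, up to 50 kb away, the WT list held 5 more H3K27me3 peaks and the H1-TKO list 4. Beyond Hoxa13 a WT peak with a score of 139.2 (chr6:52223368-52225179) faced an H1-TKO peak with a score of 56.0, and on the far side of Hoxc4 a WT peak with a score of 165.6 (chr15:102915919-102917898) faced a pair of them with 66.0 and 94.8, of which the second has its centre beyond the 50 kb and is not among the 4. Both WT peaks lay in intergenic DNA, and the H1-TKO scores were lower in H1-TKO cells, as for most peaks inside the clusters. Beyond Hoxb1 a WT peak with a score of 92.8 had no H1-TKO peak, and on the other side of HoxB, beyond Hoxb13, an H1-TKO peak with a score of 82.6 had no WT peak. Evx1, the homeobox gene beyond Hoxa13, had 3.10 and 3.27 normalized counts (WT) against 0 and 0 (H1-TKO), below the limit of the test, and Evx2, beyond Hoxd13, was listed at 0 in all libraries.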
